A study of Mus musculus with 5 samples.

Results

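The cytosolic ribosomal proteins are the protein part of the ribosome that works in the cytoplasm. They were followed here in 5 mouse liver RNA samples, called livers 1 to 5, each measured against 1 reference RNA on a 2-colour Agilent oligonucleotide array. A gene was taken as a member if a non-control probe matched it through a RefSeq accession and its symbol had the form of a large-subunit (Rpl) or small-subunit (Rps) protein gene or was Rpsa, Rplp0, Rplp1 or Rplp2, with the S6 kinase genes left out. This gave 119 of 41174 probes and 83 member genes, 51 of the large subunit and 32 of the small, among 17016 named genes with a probe. After dim probes and genes with too few values were removed, 78 members (49 large, 29 small) stood among 14910 tested genes.

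All 5 liver samples form 1 group: male C57BL/6N mice fed ethanol for 8 weeks and then given 3 ethanol binges of 5 g per kg. The labels do not say whether they are separate animals, so each p-value reflects how far these samples spread, and that spread may be technical. Liver cDNA carried Cy5 on every array and the reference, sold as Ambion Mouse Assorted Total RNA and given the tissue liver in the labels, carried Cy3. Control-diet livers were not analysed here, so every ratio below is ethanol-fed liver over reference RNA and none compares ethanol with no ethanol. Dyes were never exchanged, so any dye bias of a probe remains in its ratio.

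The ribosome decodes messenger RNA on its small subunit and joins amino acids on its large subunit, and each ribosomal protein is needed in about equal number. In mammals the messenger RNAs of nearly all these proteins begin with a run of pyrimidines, through which the growth kinase complex mTORC1 controls their translation. Several members also act outside the ribosome or serve as reference genes in quantitative PCR because their messenger RNA is abundant in most tissues.

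The arrays held 45018 spots each, with 77.3% to 81.2% well above background for liver RNA and 69.9% to 78.4% for the reference. The median probe signal after background subtraction ran from 78.4 to 177 for liver RNA and from 75.5 to 151 for the reference. The hepatocyte markers, 10 of 12 tested, had a median signal of 58521 in the liver channel and 51568 in the reference channel. Of these markers, 4 were above the reference and 0 below, where 14.2% of all tested genes were above and 12.7% below. All values below are log2 ratios after loess normalization within each array unless called signal, which is brightness before normalization.

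As a group, the ribosomal protein genes lay close to the reference. Their mean log2 ratios ran between -0.38 and 0.59 with a median of -0.05 and an SD across genes of 0.15, beside a median of -0.02 and an SD of 0.32 over all tested genes. A mean within 0.25 of 0 was found for 71 of 78 members (91.0%) and for 68.0% of all tested genes. The 95% interval of the mean lay inside 2-fold in either direction for all 78 tested members, and for 14259 of 14910 tested genes (95.6%). It lay within 0.5 of 0 for 74 members (94.9%), against 72.3% of all tested genes. Most members were among the brightest tested genes, such as Rpl41 at brightness percentile 99.5 and Rpl4 at 94.0. Some were not, such as Rpl31 (53.9), Rpl14 (35.3) and Rpsa (5.99). The comparisons with all tested genes, here and below, were not matched for brightness, and its part in them was not tested. In bulk RNA, fewer cells of a type and less RNA per cell cannot be told apart.

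The test of each mean against 0 (limma, Benjamini-Hochberg adjusted over all 14910 genes, adjusted p below 0.05) placed 3 members above the reference (3.85%) and 6 below (7.69%). Over all tested genes, 14.2% were above and 12.7% below. With a ratio of at least 2-fold also required, 0 members were above and 0 below, where 0.858% of all tested genes were above and 0.416% below. At an unadjusted p below 0.05, 14 of 78 members passed, against 6168 of 14910 tested genes, so the share was lower among members. The large subunit had 3 genes above and 4 below of 49, and the small subunit 0 above and 2 below of 29. Without each liver in turn, between 3 and 6 members were called, the fewest (2 above, 1 below) without liver 4. The share called over all tested genes fell as well, from 27.0% to 15.0% without liver 4 and to between 20.3% and 22.2% without another liver. The split was 2 above and 10 below with Agilent's own processed signals, 2 above and 11 below in the deposited ratios, and 1 above and 5 below with median centring in place of loess. Over all tested genes, these runs called 28.9%, 29.6% and 25.1%.

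**Figure D1:**
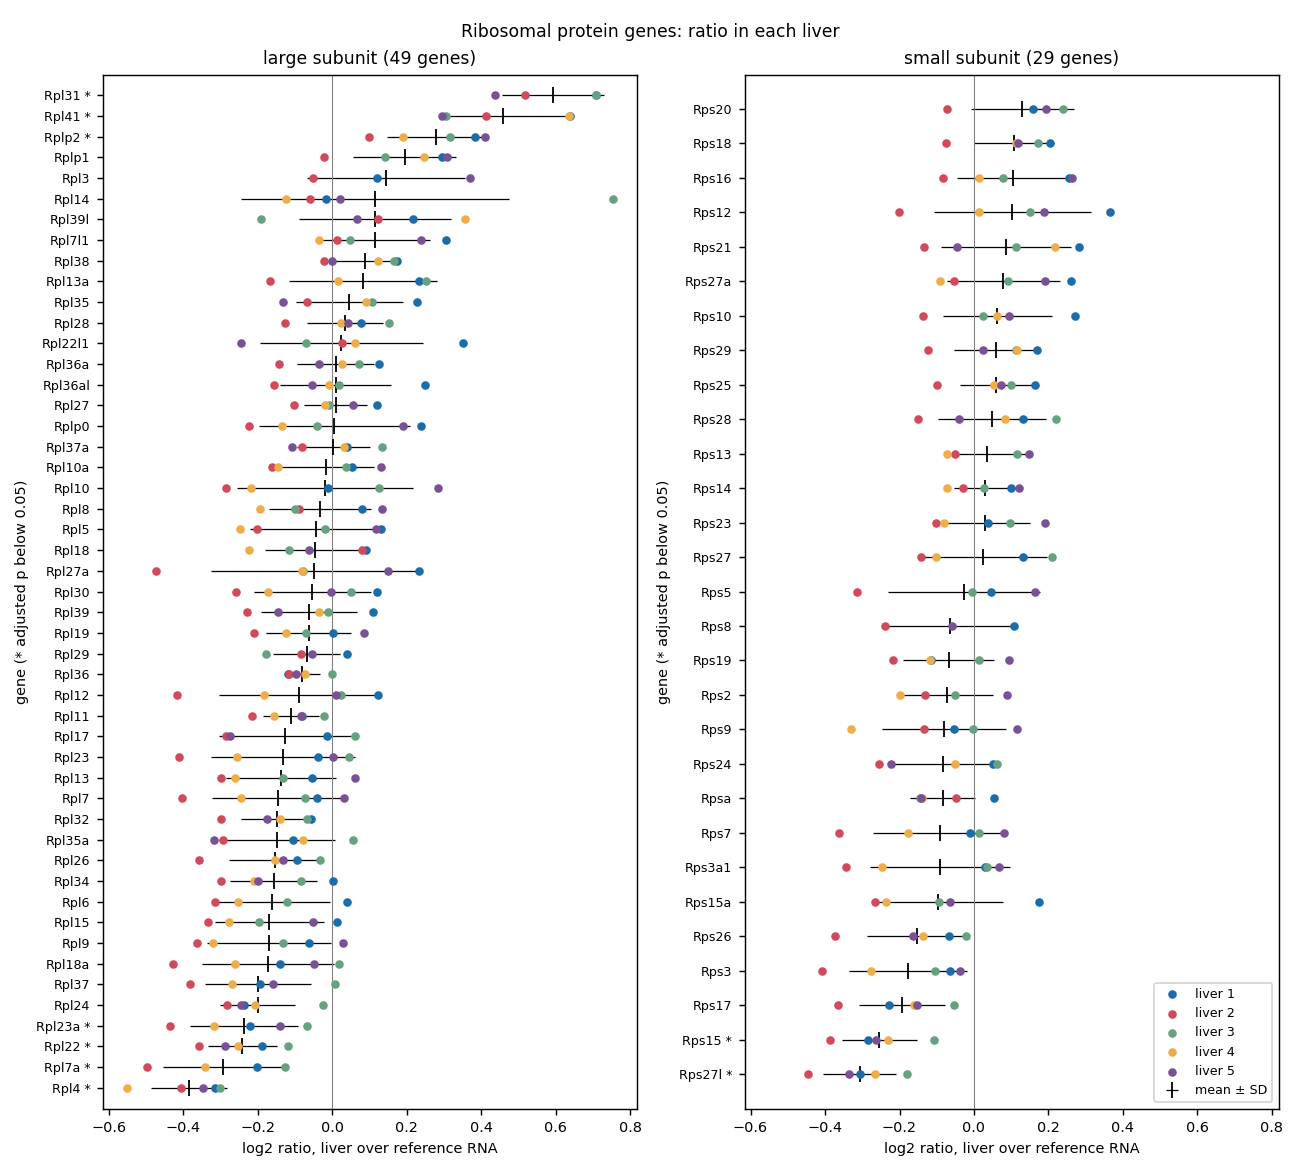
Log2 ratio of liver over reference RNA for the 78 tested ribosomal protein genes, large subunit left and small subunit right, with 1 coloured point per liver and a black tick and bar for the mean ± SD over livers; an asterisk marks an adjusted p below 0.05. Rpl31 and Rpl41 stand at the top of the large subunit and Rpl4 at the bottom, and the points of liver 2 lie to the left of the other livers for most genes.

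The strongest departure above the reference was in Rpl31, a large-subunit protein at the rim of the tunnel through which the new protein leaves the ribosome. Its signal was 255, 411, 879 and 280 in livers 1, 2, 3 and 5, against 138, 240, 445 and 264 in the reference channel of the same arrays, and the spot of liver 4 was marked as an outlier and left out. All 4 livers were above the reference, at 0.71, 0.52, 0.71 and 0.44, with a mean of 0.59 ± 0.14 (SD, n = 4, limma adjusted p = 0.00433). The second, dimmer probe of Rpl31 also lay above the reference in every liver, at a mean of 0.29 ± 0.12 (SD, n = 5).

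Rpl41 encodes a very small, very basic protein that sits between the subunits. It was among the brightest probes, with signals of 50236, 48806, 63189, 61154 and 45556 in livers 1 to 5, against 31697, 36009, 42347, 45272 and 50833 in the reference. Its log2 ratios were 0.64, 0.41, 0.31, 0.64 and 0.29, with a mean of 0.46 ± 0.17 (SD, n = 5, limma adjusted p = 0.00595). Every liver was above the reference, but liver 5 only after normalization, its signal being the lower of the 2 channels. The call was lost with processed signals (0.24, adjusted p = 0.0576), with median centring (0.35, adjusted p = 0.0677) and in the deposited ratios (0.24, adjusted p = 0.0566).

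The third member above the reference belongs to the acidic stalk, the arm of the large subunit that recruits elongation factors. Rplp2 had log2 ratios of 0.38, 0.10, 0.32, 0.19 and 0.41 in livers 1 to 5, a mean of 0.28 ± 0.13 (SD, n = 5, limma adjusted p = 0.0244). Rplp1, its dimer partner, had ratios of 0.30, -0.02, 0.14, 0.25 and 0.31 and a mean of 0.19 ± 0.14, which did not pass (adjusted p = 0.0847). Rplp0, the base of the stalk and a common quantitative PCR reference gene, had ratios of 0.24, -0.22, -0.04, -0.14 and 0.19, a mean of 0.01 ± 0.20 that missed the threshold by far (adjusted p = 0.968) and turned to -0.15 with median centring. In each of the 3 stalk genes liver 2 had the lowest value. Rplp2 lost its call under median centring (0.13, adjusted p = 0.515) and without liver 1, 3, 4 or 5, where its adjusted p was between 0.0613 and 0.0776.

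Among the members below the reference, Rpl4, which forms part of the wall of the exit tunnel, was the lowest. Its signal was 2136, 2560, 3851, 3119 and 3759 in livers 1 to 5, against 2590, 3556, 4035, 5644 and 6653 in the reference. The log2 ratios were -0.32, -0.41, -0.30, -0.55 and -0.35, all below 0, with a mean of -0.38 ± 0.10 (SD, n = 5, limma adjusted p = 0.00619). Rpl4 and Rpl31 were the called members that kept their call in every alternative run, with means for Rpl4 between -0.55 and -0.34 and for Rpl31 between 0.29 and 0.74.

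Rps27l, a paralogue of Rps27 known in human cells as a p53 target, had ratios of -0.31, -0.45, -0.18, -0.27 and -0.34, a mean of -0.31 ± 0.10 (SD, n = 5, limma adjusted p = 0.0142). Without liver 4 its adjusted p was 0.0520. The 11 tested genes of a p53 target list had 1 gene above and 2 below the reference and a median of -0.01. Over all tested genes, 14.2% were above and 12.7% below.

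The other 4 members below the reference were closer to it. Rpl7a, a large-subunit protein, was at -0.20, -0.50, -0.13 and -0.34 in livers 1 to 4 (mean -0.29 ± 0.16, SD, n = 4, limma adjusted p = 0.0470), with the spot of liver 5 left out as an outlier. Rps15, in the head of the small subunit, was at -0.28, -0.39, -0.11, -0.23 and -0.26 (mean -0.25 ± 0.10, n = 5, adjusted p = 0.0273). Rpl22, an RNA-binding protein of the large subunit that mouse cells can do without, was at -0.19, -0.36, -0.12, -0.25 and -0.29 (mean -0.24 ± 0.09, n = 5, adjusted p = 0.0311). Rpl23a, which lies at the tunnel exit where the signal recognition particle docks, was at -0.22, -0.44, -0.07, -0.32 and -0.14 (mean -0.24 ± 0.15, n = 5, adjusted p = 0.0498). In all 4, every measured liver was below the reference, liver 2 was the lowest and liver 3 the highest. Leaving out 1 liver ended the call of Rpl7a (adjusted p between 0.0545 and 0.159) and Rpl23a (between 0.0512 and 0.162) whichever liver it was. It ended that of Rps15 without liver 1, 2, 4 or 5 (0.0594 to 0.0863) and that of Rpl22 without the same livers (0.0503 to 0.105). Rpl7a also missed the threshold with median centring (adjusted p = 0.117) and with arrays scaled to each other (0.0593). Rpl23a missed it with scaled arrays (0.0517), with no filter on dim probes (0.0525) and as the mean of its probes (0.0613).

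The promoters of called members are shown because these genes lay on opposite sides of the reference, and ribosomal protein genes are known for short shared promoter elements. Promoters came from RefSeq (GRCm38.p6), where 63 of the 83 members matched, with 75 promoters. Those of the 6 called members with exactly 1 listed promoter are printed as windows that end 20 bases after the start, and capitals mark CCGGAAG, a core of ETS-family sites, or the same letters on the opposite strand. The first 3 genes were above the reference and the last 3 below. Rps27l and Rpl22, both below the reference, have 2 listed promoters each and are not printed. CCGGAAG was found in 1 of the promoters of Rps27l and in neither of Rpl22. No promoter matched Rpl23a, also below the reference. Whether the motif goes with the side of the reference was not tested.
Rpl31, chr1:39367736-39367870, plus strand: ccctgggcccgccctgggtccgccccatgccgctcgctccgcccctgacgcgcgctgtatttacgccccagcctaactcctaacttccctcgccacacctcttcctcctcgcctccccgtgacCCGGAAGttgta
Rpl41, chr10:128549149-128549283, minus strand: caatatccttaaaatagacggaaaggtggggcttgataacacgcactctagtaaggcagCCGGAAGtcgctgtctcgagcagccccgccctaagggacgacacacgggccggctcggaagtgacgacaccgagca
Rplp2, chr7:141447536-141447670, plus strand: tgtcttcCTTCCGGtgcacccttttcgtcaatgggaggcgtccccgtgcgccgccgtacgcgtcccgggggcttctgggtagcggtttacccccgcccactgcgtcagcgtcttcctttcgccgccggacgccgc
Rpl4, chr9:64173272-64173406, plus strand: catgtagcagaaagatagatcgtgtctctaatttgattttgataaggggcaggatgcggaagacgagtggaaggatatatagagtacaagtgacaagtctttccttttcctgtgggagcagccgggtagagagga
Rpl7a, chr2:26910692-26910826, plus strand: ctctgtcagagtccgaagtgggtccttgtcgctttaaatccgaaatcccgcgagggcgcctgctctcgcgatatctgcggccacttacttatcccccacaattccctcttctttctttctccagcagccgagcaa
Rps15, chr10:80292316-80292450, plus strand: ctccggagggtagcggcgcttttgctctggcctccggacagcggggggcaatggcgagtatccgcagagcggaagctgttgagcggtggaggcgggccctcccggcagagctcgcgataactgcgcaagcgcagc

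Each promoter was searched from 250 bases before the start to 50 bases after it. Across all matched members, CCGGAAG on either strand was found in 27 of 75 promoters (36.0%), against 2910 of 32851 promoters in the whole table (8.86%). CTCTTT, read in the direction of transcription and within 30 bases of the start, was found in 11 member promoters (14.7%), against 752 of all promoters (2.29%). Neither motif contains the other. A match of letters describes these windows and is not a measured binding site.

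The module was compared between the 2 subunits on each array, since their proteins are needed in equal number. The median of the large-subunit genes was 0.04, -0.22, -0.01, -0.15 and -0.00 in livers 1 to 5, and that of the small-subunit genes was 0.10, -0.14, 0.03, -0.10 and 0.08. The large subunit lay below the small subunit in each liver, by -0.06, -0.07, -0.04, -0.05 and -0.08, a mean difference of -0.06 ± 0.02 (SD, n = 5), and by -0.07 without the paralogues. The difference was described without a test, and its size depended on the summary. The mean of the gene means was -0.037 for the large and -0.031 for the small subunit. The median of the gene means was -0.054 and -0.027. Across genes the SD of the ratio was 0.17 in the large and 0.11 in the small subunit. The mean difference was -0.03 with processed signals and -0.02 with deposited ratios, and in both of these the large subunit lay above the small subunit in liver 2, by 0.025 and 0.030. With the mean of all tested probes, the difference in liver 1 was -0.00023.

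The livers held different positions for the module as a whole. The median of all tested members was 0.05, -0.20, 0.01, -0.14 and 0.02 in livers 1 to 5, while that of all tested genes stayed between -0.02 and -0.00. Loess within each array sets the median of all genes near 0, so its steadiness cannot show that only this module shifted. In liver 2 only 7 of 78 measured members were above 0 and in liver 4 only 19 of 71, beside 49 of 76 in liver 1, 40 of 76 in liver 3 and 39 of 74 in liver 5. Among the 65 members with a value on all arrays, liver 2 held the lowest value in 48 and the highest in 0. The position of liver 5 depends on the normalization: its member median was -0.50 with median centring, where the median of all tested genes in that liver was -0.26. The sign of the small medians of livers 1, 3 and 5 also turned, to -0.01, -0.00 and -0.06, with processed signals, whereas livers 2 and 4 stayed below 0 in all 5 normalizations plotted.

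**Figure D2:**
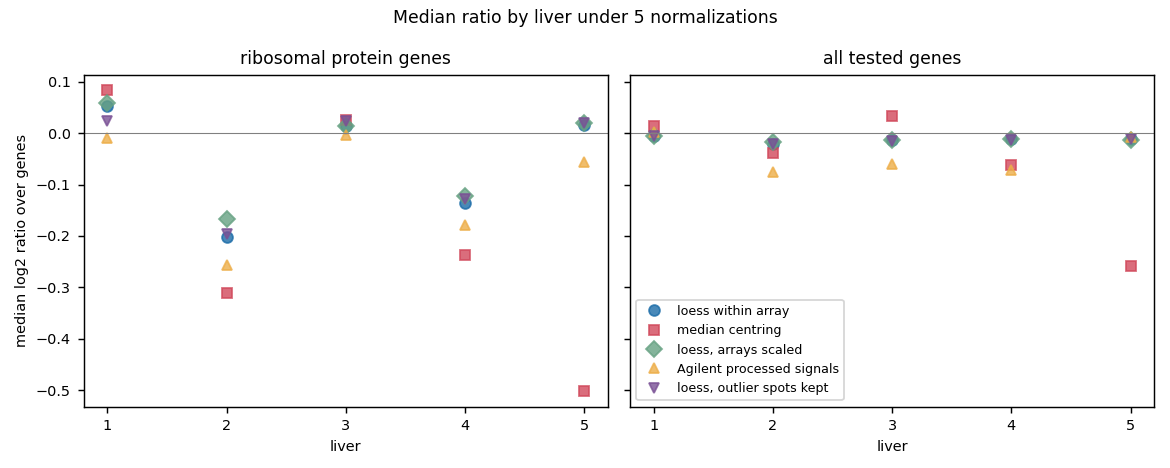
Median log2 ratio in each liver over ribosomal protein genes (left) and over all tested genes (right), with 1 symbol per normalization. Livers 2 and 4 lie below 0 for the ribosomal protein genes under every symbol, and liver 5 lies far lower with median centring than with the others in both panels.

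Relative to all tested genes, the member median was 0.06, -0.18, 0.03, -0.12 and 0.03 in livers 1 to 5. The median of member means minus that of all tested genes was -0.033 with all 5 livers. That difference was 0.0070 without liver 2, -0.0054 without liver 4 and -0.0049 with the mean of all tested probes. With median centring it was further from 0, at -0.140. It thus depended on livers 2 and 4, on the choice of probe and on the normalization. None of the lists of other cell types had its lowest medians in livers 2 and 4. Their counts stand beside 14.2% of all tested genes above the reference and 12.7% below. Testis markers, 8 of 10 tested with 3 above and 1 below the reference, had medians of -0.08, 0.40, 0.01, 0.23 and -0.02, highest in livers 2 and 4. Red blood cell markers (6 of 8 tested, 1 above and 3 below) had medians of -1.35, -0.43, -0.53, -0.28 and -0.16, and leukocyte markers (10 of 12 tested, 3 above and 3 below) lay between -0.27 and 0.05. Muscle markers (10 of 12 tested, 2 above and 3 below) lay between -0.15 and -0.02, and embryo and proliferation markers (8 of 12 tested, 1 above and 1 below) between -0.11 and 0.08. The leukocyte, muscle and embryo medians were also highest in livers 2 and 4, and the red blood cell medians were lowest in livers 1 and 3. The part of these cell types in the shift of livers 2 and 4 was not tested.

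Much of the spread of a member between livers was shared by the module. The median SD over livers was 0.15 for members and 0.18 for all tested genes, and for members it was 0.09 once the module's own median was subtracted from each array. After that subtraction Rplp2 stood above the module in every liver, by 0.33 ± 0.04 (SD, n = 5), and Rpl4 below it in every liver, by -0.33 ± 0.08. Of the 65 members with 5 values, 15 had the same sign in all 5 livers, against 5167 of 13697 of all tested genes. In the test of each gene's variance over livers, 0 of 63 members passed (smallest adjusted p = 0.953, limma's prior variance), and 0 at an unadjusted p below 0.05. Over all 12008 genes in that test 0 passed as well (0%), with 664 at an unadjusted p below 0.05. The prior was fitted to the variances of these same genes, so the test cannot show spread that most genes share.

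The widest spread over livers among members was in Rpl14, a large-subunit protein, with an SD of 0.36. Its ratios were -0.02, -0.06, 0.75, -0.12 and 0.02, so that liver 3 alone stood far above the rest. Rpl27a had an SD of 0.27, with 0.23 in liver 1 and -0.47 in liver 2, and Rpl12, which lies at the base of the stalk, had an SD of 0.21, with 0.12 in liver 1 and -0.42 in liver 2. In Rpl10, a protein added late as the large subunit matures, the SD was 0.24, with the highest value of 0.28 in liver 5 and the lowest of -0.28 in liver 2.

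Tissue-restricted and duplicated forms were set beside their canonical genes as differences of ratios within each array. Rpl22l1 minus Rpl22 was 0.54, 0.38, 0.05, 0.31 and 0.04 in livers 1 to 5 (mean 0.27 ± 0.22, SD, n = 5). Rpl7l1 minus Rpl7 was 0.35, 0.42, 0.12, 0.21 and 0.21 (mean 0.26 ± 0.12, n = 5). Both paralogues lay above their canonical gene in every liver, while neither passed the test against the reference by itself (Rpl22l1 mean 0.02, limma adjusted p = 0.864; Rpl7l1 mean 0.11, adjusted p = 0.321). Rps27l minus Rps27 was -0.44, -0.30, -0.39 and -0.16 in livers 1 to 4 (mean -0.32 ± 0.12, n = 4), below in each, and Rps27 averaged 0.02 ± 0.17 (n = 4, adjusted p = 0.864).

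Rpl36al minus Rpl36a averaged -0.00 ± 0.07 (SD, n = 5) and had both signs. Rpl39l, a form known from mouse male germ cells, minus Rpl39 averaged 0.18 ± 0.23 (n = 5), with liver 3 below 0 and the other 4 above. The Rpl39l probe was dim, with signals between 27.1 and 78.5 in the liver channel and of at most 105 in the reference channel, and it was well above background on 4 and 2 arrays. Rpl3l, known from striated muscle, was not well above background on any array in either channel and was not tested. No probe matched Rpl10l or Rps4l. Probes of paralogues and of the many processed pseudogenes of this family may share signal, so the values of close copies are uncertain.

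**Figure D3:**
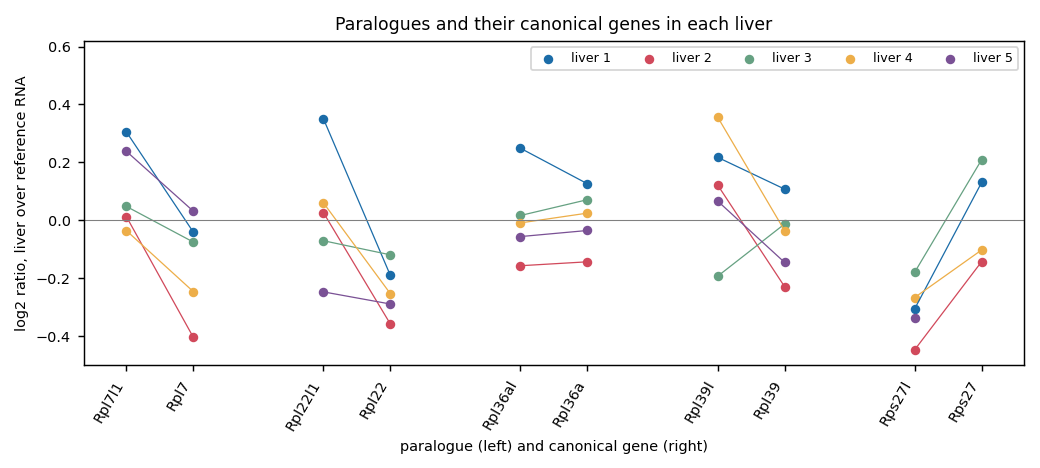
Log2 ratio of liver over reference RNA for 5 paralogues (left of each pair) and their canonical genes (right), with 1 coloured line and pair of points per liver. Lines of Rpl7l1 and Rpl22l1 all slope down to the canonical gene and those of Rps27l all slope up.

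Members with several probes were used to see how far a gene's value rests on 1 probe. Of 26 members with more than 1 tested probe, 8 (30.8%) had probes of opposite sign, against 2063 of 4597 (44.9%) over all tested genes, and the median range between probes was 0.11, against 0.20. The widest range was in Rps25, a small-subunit protein: its bright probe averaged 0.06 ± 0.10, and its dim probe averaged 1.12, lowest in liver 1 at 0.74 and highest in liver 2 at 1.60. The signal of that dim probe was between 175 and 380 in the liver channel, against 65.9 to 134 in the reference channel, while the bright probe had at least 6822 and 6175. With the mean of both probes Rps25 was called above the reference (0.59, limma adjusted p = 0.00261). Rpl22 ran between -0.24 for its bright probe and -0.65 for its dim one, and Rpl31 between 0.59 and 0.29. Rpl13, with -0.14 and 0.13, and Rpl23, with -0.13 and 0.08, had probes of opposite sign. The median SD between spots of one probe on one array was 0.0935 for the 245 probes spotted 10 times.

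**Figure D4:**
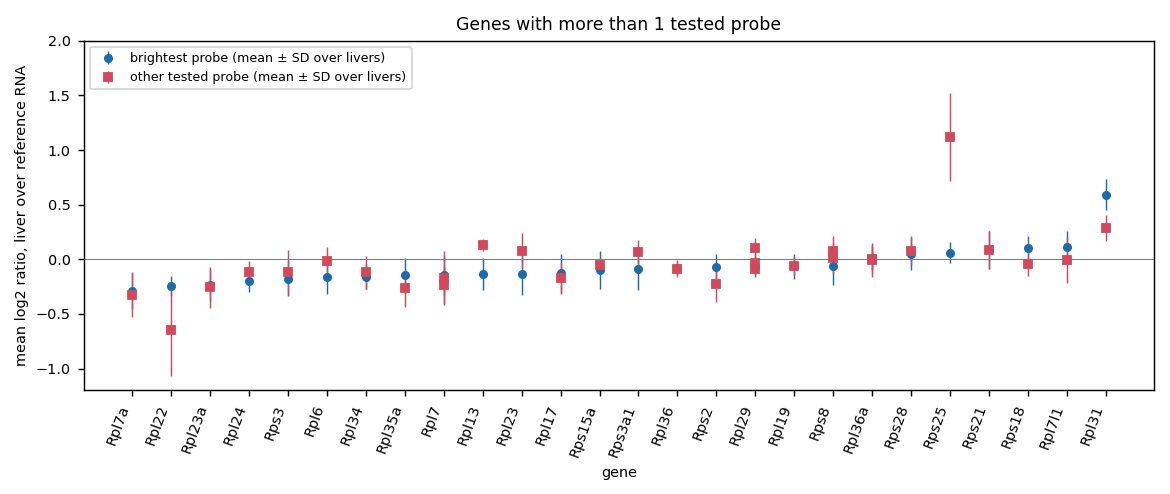
Mean ± SD over livers of the log2 ratio of liver over reference RNA for each tested probe of the 26 members with more than 1, the brightest probe as a blue circle and the others as red squares. The dim probe of Rps25 stands alone above 1, and that of Rpl22 is the lowest.

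Of the 83 members with a probe, 5 were not tested. Among these, Rpl21 was well above background in the liver channel on 1 array, and Rpl3l on none. Rps4x and the S6 kinase substrate Rps6 were bright but kept 2 values each after outlier spots were removed, at 0.27 and 0.08 for Rps4x and 0.23 and 0.03 for Rps6. With outlier spots kept, the mean was 0.06 for Rps4x and 0.13 for Rps6, with limma adjusted p-values of 0.573 and 0.184. Rpsa, the laminin-binding small-subunit protein, was represented by a dim probe at -0.08 ± 0.09 (SD, n = 5), because its bright probe kept only 2 values, 0.37 and 0.04. With outlier spots kept, the bright probe of Rpsa averaged 0.13 (adjusted p = 0.192).

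Among members used as quantitative PCR reference genes, 0 of the 6 examined passed the test, against 9 of all 78 tested members and 27.0% of all tested genes. These 6 were picked after their values were seen. Rplp0 is given above, Rpl13a averaged 0.08 ± 0.20 (n = 4), Rpl19 -0.06 ± 0.11, Rpl32 -0.15 ± 0.10, Rps18 0.11 ± 0.11 and Rps29 0.06 ± 0.11 (SD, n = 5 for the last 4). Their differences from the reference were smaller than the spread between livers except for Rpl32, whose mean exceeded its SD and which lay below the reference in all 5 livers (adjusted p = 0.144). Rpl5 and Rpl11, which with 5S RNA bind the p53 regulator Mdm2, averaged -0.04 ± 0.18 and -0.11 ± 0.08 (n = 5 each, adjusted p = 0.709 and 0.238). Rpl11 lay below the reference in all 5 livers and Rpl5 in 3.

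Some ribosomal proteins are made as fusions to ubiquitin or a ubiquitin-like protein. Rps27a averaged 0.08 ± 0.15 (SD, n = 5) and Fau 0.08 ± 0.15 (n = 4). The scaffold Rack1, bound to the head of the small subunit, averaged -0.14 ± 0.23 (n = 5), with -0.36 and -0.38 in livers 2 and 4 and 0.12 in liver 5. None of the 3 passed (limma adjusted p between 0.286 and 0.537).

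The genes that build ribosomes and drive translation were described by lists, without a test of any list. The counts of each list here and below stand beside 14.2% of all tested genes above the reference and 12.7% below. Of the ribosome biogenesis genes, 8 of 52 tested were above the reference and 6 below, with a median of -0.04. Dkc1, the pseudouridine synthase of ribosomal RNA, was above it by more than 2-fold, with 0.64, 1.27, 1.06, 1.45 and 0.84 in livers 1 to 5 (mean 1.05 ± 0.32, SD, n = 5, limma adjusted p = 0.00116), a value that dropped to 0.50 as the mean of its 2 probes. Nle1, needed to mature the large subunit, was above it (0.50, n = 4), and Nop10, a partner of Dkc1, and the nucleolar chaperone Npm1 were below it (-0.33 and -0.51). RNA polymerase I and its factors had 2 genes above, Ttf1 (0.34) and Taf1c (0.28), and 0 below of 16, with a median of 0.04.

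Mitochondrial ribosomal proteins, which make up the separate ribosome of mitochondria, had 1 gene above and 10 below of 78, with a median of -0.09 and medians by liver of -0.10, -0.24, -0.06, -0.06 and -0.00. Mrps10 was above (0.41) and Mrpl3 and Mrpl1 were below (-0.36 and -0.46). Mrps17, at 0.40 ± 0.49 with 1.24 in liver 3, did not pass. Translation initiation factors had 1 gene above and 5 below of 33, with a median of -0.10 and medians by liver of -0.01, -0.24, -0.14, -0.26 and 0.04. Eif1, which guards start codon choice, was above (0.36) and the RNA helicase Eif4a2 was below (-0.81 ± 0.39, n = 4, limma adjusted p = 0.00769), while Eif6 (0.21) and Eif4b (-0.29) did not pass.

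The elongation factor list had 2 genes above, Eif5a2 (0.45) and Eef1a2 (0.35), and 1 below, Eef1e1 (-0.31), of 8, with a median of -0.01. Despite its symbol, Eef1e1 is not itself an elongation factor. Eef1a1, the widely expressed form of Eef1a2, did not pass (-0.14 ± 0.23). The mTORC1, S6 kinase and translational control list had 1 gene above and 7 below of 24, with a median of -0.14 and medians by liver of -0.02, -0.27, -0.16, -0.17 and -0.05. The mTOR inhibitor Deptor (-0.67 ± 0.07, n = 4, limma adjusted p = 0.00205) and the kinase Rps6ka3 (-0.47, n = 4) were below, the interferon-induced kinase Eif2ak2 was above (0.19), and the stress protein Sesn2 (0.20, adjusted p = 0.0529) did not pass. The Eif2ak2 probe was dim, with mean signals of 35.8 for liver and 22.2 for the reference. It was well above background on 5 arrays for liver but on 1 for the reference. Eif2ak2 was thus tested only through the channel where it was higher, and its call carries little weight. Without liver 4 the calls of Nle1, Nop10, Npm1, Ttf1, Taf1c, Mrpl3, Eef1a2, Eef1e1, Eif2ak2 and Rps6ka3 were lost (limma adjusted p between 0.0591 and 0.112), and leaving out another liver also ended those of all but Nop10 and Eef1e1. Without liver 4 the share called over all tested genes fell too, from 27.0% to 15.0%. Livers 2 and 4 were the lowest 2 in the ribosomal protein, elongation, initiation and mTORC1 lists, narrowly so in the last. They were not the lowest 2 in the remaining lists plotted. Liver 1 was below liver 4 for mitochondrial ribosomal proteins (-0.10 and -0.06). Liver 3 was below liver 2 for ribosome biogenesis (-0.11 and -0.02) and RNA polymerase I (-0.03 and 0.06).

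**Figure D5:**
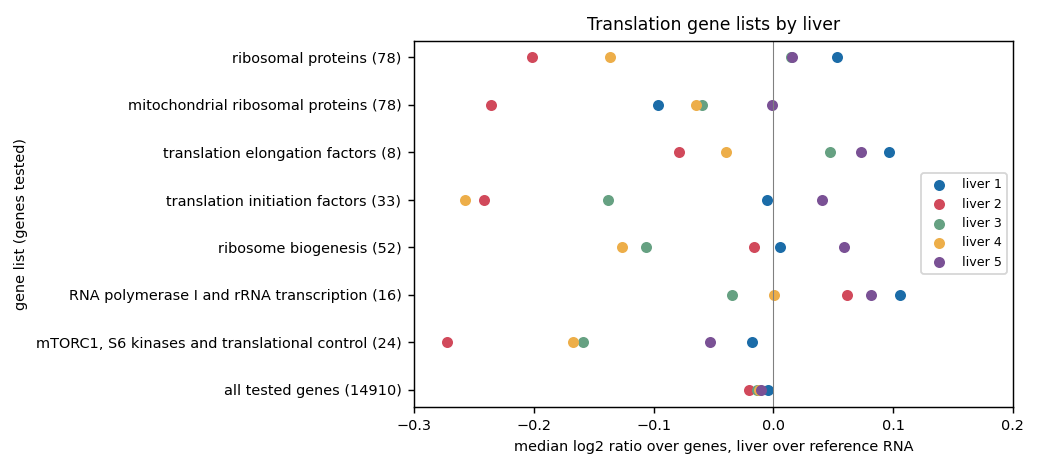
Median log2 ratio of liver over reference RNA over the tested genes of each translation list, 1 coloured point per liver, with the number of genes tested in brackets. Livers 2 and 4 have the lowest medians in the ribosomal protein, elongation, initiation and mTORC1 lists. This order does not hold in the mitochondrial ribosomal, ribosome biogenesis and RNA polymerase I lists. The medians of all tested genes lie together near 0, where loess sets them.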

How the data were processed

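RNA of 5 livers was compared with 1 reference RNA on 2-colour arrays. Per the file headers, the authors read each spot's intensity in both dyes with Feature Extraction 11.5.1.1 (Agilent), and the deposited scanner files hold it without normalization. They also carry a deposited log10 ratio, red dye over green. A deposited table gives log2 ratios for 40599 probes, of which 90.9% of values matched the scanner ratio to within 0.001, which settles scale and direction (liver over reference). Column medians were -0.03, -0.07, -0.08, -0.10 and -0.03, so they were not centred further.

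Median intensities were used because no mean intensity is in the files. Background was corrected with normexp (offset 50) and arrays normalized by loess in limma 3.58.1 (R 4.3.3), with control and outlier spots (2.32% to 4.05% per array) left out. Saturated spots numbered 0. RefSeq accessions named 24375 probes and left 16799 unnamed. Probe coordinates are left out because the headers name build mm8. Testing required 3 or more values and a signal well above background, in liver or reference, on 3 or more arrays, and the brightest tested probe represented its gene.

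Means were tested against 0 with limma (trend and robust prior, two-sided, Benjamini-Hochberg) and variances over livers by an F test against limma's prior variance. The fits were tested on simulated data. The number of arrays limits the precision, and the reference's own spread is left out. Named genes were called members, paralogue pairs, stalk genes and Rpsa, the 5 members with the largest SD, the 5 with the widest probe range and the extremes of each list; the quantitative PCR reference genes, the Mdm2-binding genes, Rps27a and members that were not tested were added after their values were seen. Some genes of the lists are not reported here. Members and lists were chosen with earlier results of these data known. Alternatives changed background, normalization, filters, probes, prior and livers.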

Additional observations from a re-analysis of the deposited data

Results flagged for a closer look

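Liver 3 stood apart from the other livers for Rpl14, at a log2 ratio of 0.75, where the other 4 lay between -0.12 and 0.02. The gap to the nearest liver was 0.835 of the whole range, past the limit of Dixon's test for 5 samples. The signal of the Rpl14 probe in liver 3 was 439 in the liver channel, against 167 in the reference channel. Chance flags about 1 in 20 groups, and 56 sets of values were examined.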

How the results depend on the processing

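The count of called members, 9, lay between 6 and 13 under the other normalizations, filters and priors and between 3 and 6 with 1 liver left out. The median of members was -0.195 with median centring against -0.05. Large minus small subunit was -0.029 with processed signals and -0.021 with deposited ratios, and between -0.07 and -0.06 with 1 liver left out. Called paralogues were 2 in place of 1 with no filter on dim probes, the added one being Rpl3l, which was not well above background on any array, and between 0 and 1 with 1 liver left out. Called genes of the other lists were 44, and between 11 (without liver 4) and 29 with 1 liver left out. Calls over all tested genes fell too, from 27.0% to 15.0% without liver 4 and to between 20.3% and 22.2% without another liver. Varying members stayed at 0 under each alternative run of the variance test, which was not made with the mean of all tested probes. The cause of the shifts in the other counts and medians was not tested.

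Signs turned only for genes that were not called. With median centring, means were -0.064 for Rpl3, -0.113 for Rpl22l1, -0.143 for Rpl36al, -0.137 for Rpl36a, -0.014 for Rps27, -0.150 for Rplp0, -0.093 for Rps25 and -0.058 for Fau. With processed signals, they were -0.070 for Rpl36a, -0.053 for Rps27 and -0.087 for Fau. In deposited ratios, they were -0.018 for Rpl3, -0.070 for Rpl36a, -0.107 for Rps27 and -0.143 for Fau. With outlier spots kept, they were -0.011 for Rpl36al, -0.0099 for Rpl36a, -0.018 for Rps27 and 0.134 for Rpsa. Scaling the arrays gave 0.0089 for Rpl10. With 1 liver left out, ranges were -0.097 to 0.045 for Rpl10, -0.057 to 0.092 for Rpl22l1, -0.051 to 0.050 for Rpl36al, -0.020 to 0.047 for Rpl36a, -0.038 to 0.080 for Rps27, -0.053 to 0.063 for Rplp0, -0.045 to 0.174 for Rpl14 and -0.121 to 0.056 for Rpl27a. Over single named genes, 625 alternative values kept direction and side of the threshold, 77 lost the call, 10 gained it and 32 changed sign.

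No paired analysis was possible because the arrays hold 1 group. A block for slide was not run, since each of the 5 slides holds 1 array. Dim probes, such as those of Rpl39l and Rpsa, limit what their ratios show.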
